A study of Mus musculus with 13 samples.

Results

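The effect of metformin on alveolar macrophages of mice that had received particulate matter (PM) was measured in 6 of the 13 RNA-seq libraries of the series, namely the 3 libraries of metformin-treated and the 3 libraries of vehicle-treated mice among those given PM. Membership followed from the treatment names in the headings of the count table, and no measured value entered the choice. Alveolar macrophages are phagocytes that live in the airspace of the lung, where they take up inhaled particles and clear surfactant lipid. The cells were sorted by flow cytometry from male C57Bl/6 mice (Jackson) aged 10 weeks. The metformin group had 100 mg/kg/day of the drug in its drinking water from 24 h before instillation and is called metformin PM (n = 3). The vehicle PM group (n = 3) had drinking water without the drug. Both received 10 µg of particulate matter from NIST (the National Institute of Standards and Technology) into the trachea, and both were harvested 24 h later. The 7 libraries of mice instilled with phosphate-buffered saline (PBS) instead, 4 on vehicle and 3 on metformin, served as the background in which the metformin effect was measured the same way. The series was deposited under a title that concerns air pollution, metformin and thrombosis, so genes of inflammation and coagulation are described alongside those of stress responses.

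Metformin is a biguanide used against type 2 diabetes. It is known to inhibit complex I of the mitochondrial respiratory chain and, through lowered energy charge, to activate the kinase AMPK. Macrophages exposed to particles are known to secrete cytokines such as interleukin 6, whose release is linked to coagulation of the blood. Cells that face misfolded protein raise chaperones of the cytosol through the factor HSF1 and those of the endoplasmic reticulum (ER) through the unfolded protein response, in which XBP1 and ATF6 act as transcription factors. Hormones that raise cyclic AMP (cAMP) act on transcription through CREB, whose early targets include Crem, Nr4a family members, phosphodiesterases and Per1.

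The libraries held 6.61 ± 0.468 M counts assigned to genes (M, megacounts) in vehicle PM (SD, range 6.182 to 7.107) and 7.5 ± 0.863 M in metformin PM (range 6.515 to 8.101). Replicates correlated across genes at 0.98732 or more, and no pair agreed within sampling noise. The 37 alveolar macrophage markers summed to values that overlapped between the groups, and the defining genes Siglecf (477 to 547 counts per M, CPM, over the 6 libraries), Marco (415 to 718 CPM) and Pparg (194 to 262 CPM) were not called in the comparison. Of the 37, 2 (Cidec and Plet1) were higher and 3 (Bhlhe41, Lpl and Car4) lower (5.41% and 8.11%, against 4.08% and 2.81% of all genes). At an unadjusted p under 0.05 there were 9 and 8 of the 37, against 1281 and 1136 of all 11906 genes tested. With only the groups compared 5 were higher and 5 lower, and without a filter on low counts 7 and 9. Of 17 neutrophil markers 5 had no count in any of the 6 libraries, among them Ly6g, Retnlg and Camp. The same held for 5 of 9 eosinophil and mast cell markers, among them Epx, Prg2 and Ccr3. Other such markers had counts. Mean levels in vehicle PM and metformin PM were 31.2 and 27.6 CPM for the neutrophil marker Mmp8 and 22.4 and 27.8 CPM for Csf3r. They were 12.2 and 15.2 CPM for the eosinophil marker Ear6. Among monocyte markers 0 of 14 tested members were called by edgeR, and among neutrophil markers 0 of 6. At an unadjusted p under 0.05 there were 2 and 2 such genes, and limma-voom and DESeq2 called 0 of either list. No sequencing batch appears in the labels, and the libraries are numbered group after group, so the order of processing cannot be told apart from treatment. The labels call the samples biological replicates and do not say which animals or cages they came from.

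The quasi-likelihood test of edgeR was applied to 11906 genes, of which 486 (4.08%) were higher and 334 (2.81%) were lower with metformin than with vehicle after PM at an adjusted p under 0.05, the threshold by which a gene is said to have risen, fallen or been called below. Most of the changes were small. The median log2 fold change was 0.454 among the genes that rose and −0.368 among those that fell, and 53 rises and 3 falls exceeded 2-fold. The falls past 2-fold were Batf3, a transcription factor of dendritic cells and T cells, the kinesin Kif21b and the RNA component of RNase MRP, Rmrp, the last named after its value was seen. Over all genes tested the median log2 fold change was −0.00396. At an unadjusted p under 0.05, which is also given for some lists, 1281 of all genes tested were higher and 1136 lower. Of the 11906 genes, 1597 had every metformin PM library above every vehicle PM library, and 1557 had every one below. Of these 477 and 328 were called. Leaving out vehicle PM 2 brought the rises to 241 and the falls to 178, and leaving out metformin PM 1 brought them to 261 and 170. Without vehicle PM 3 the falls numbered 211. None of the 820 called genes changed sign in any of these fits.

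Cytosolic chaperones formed the gene group with the largest number of rises. Of 27 tested heat shock chaperones and co-chaperones, 14 rose and none fell (51.9% and 0%, against 4.08% and 2.81% of all genes). The median log2 fold change of the 27 was 0.388. The genes covered the machinery of protein folding: the Hsp70 genes Hspa1a and Hspa1b, the nucleotide exchange factors Hsph1 and Bag3, the J-domain proteins Dnaja1 and Dnajb1 (the latter not called without vehicle PM 2) that deliver clients to Hsp70, the Hsp90 gene Hsp90aa1 and its co-chaperones Chordc1 and Stip1. The count stayed between 12 and 15 when any one library was left out.

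The inducible Hsp70 gene Hspa1b (ENSMUSG00000090877; mm10 chromosome 17, 34956436 to 34959238, minus strand) stood at 11.6, 6.84 and 7.48 CPM in vehicle PM 1, 2 and 3 and at 59.1, 54.6 and 38.6 CPM in metformin PM 1, 3 and 4. Every metformin library thus lay above every vehicle library, which the rule that named the largest rises required. The rise of Hspa1b was 5.85-fold (log2 2.55 ± 0.37, SE, adjusted p = 0.000252). Its neighbour Hspa1a gave 11.7, 9.49 and 9.1 CPM with vehicle and 39.6, 38.6 and 26.5 CPM with metformin (3.46-fold, adjusted p = 0.00146). These copies are nearly identical in sequence, and Hspa1a also overlaps the predicted gene Gm20481, so how reads were divided between them is uncertain. Both copies were called higher, and whether that division affects the size of either rise was not tested.

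Hsph1, the large Hsp70-related exchange factor, rose from 69.4, 61.1 and 55.1 CPM to 182, 191 and 162 CPM (log2 1.52 ± 0.19, adjusted p = 7.17e-05). Dnaja1 rose from 121, 98.9 and 101 CPM to 233, 244 and 236 CPM (log2 1.15 ± 0.15, adjusted p = 9.89e-05). Chordc1 rose from 61.4, 56.3 and 61.9 CPM to 106, 118 and 106 CPM (log2 0.88 ± 0.12, adjusted p = 9.43e-05). The groups did not overlap for any of these genes, and the spread within each group was small against the distance between the groups. Hspa4l, another Hsp70 relative, was the list member with the lowest adjusted p (4.77e-05), with 59.5, 54 and 61.6 CPM under vehicle and 96.2, 95.8 and 88.1 CPM under metformin. The constitutive Hsp70 gene Hspa8 rose by log2 0.58 ± 0.15 (adjusted p = 0.0183), a call that was lost without vehicle PM 2, vehicle PM 3, metformin PM 3 or metformin PM 4, or with DESeq2. The gene of the transcription factor itself, Hsf1, had 25.6, 29.4 and 28.3 CPM with vehicle and 26.2, 29.3 and 31.3 CPM with metformin (log2 0.06 ± 0.10, adjusted p = 0.817), and its groups overlapped.

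**Figure D1:**
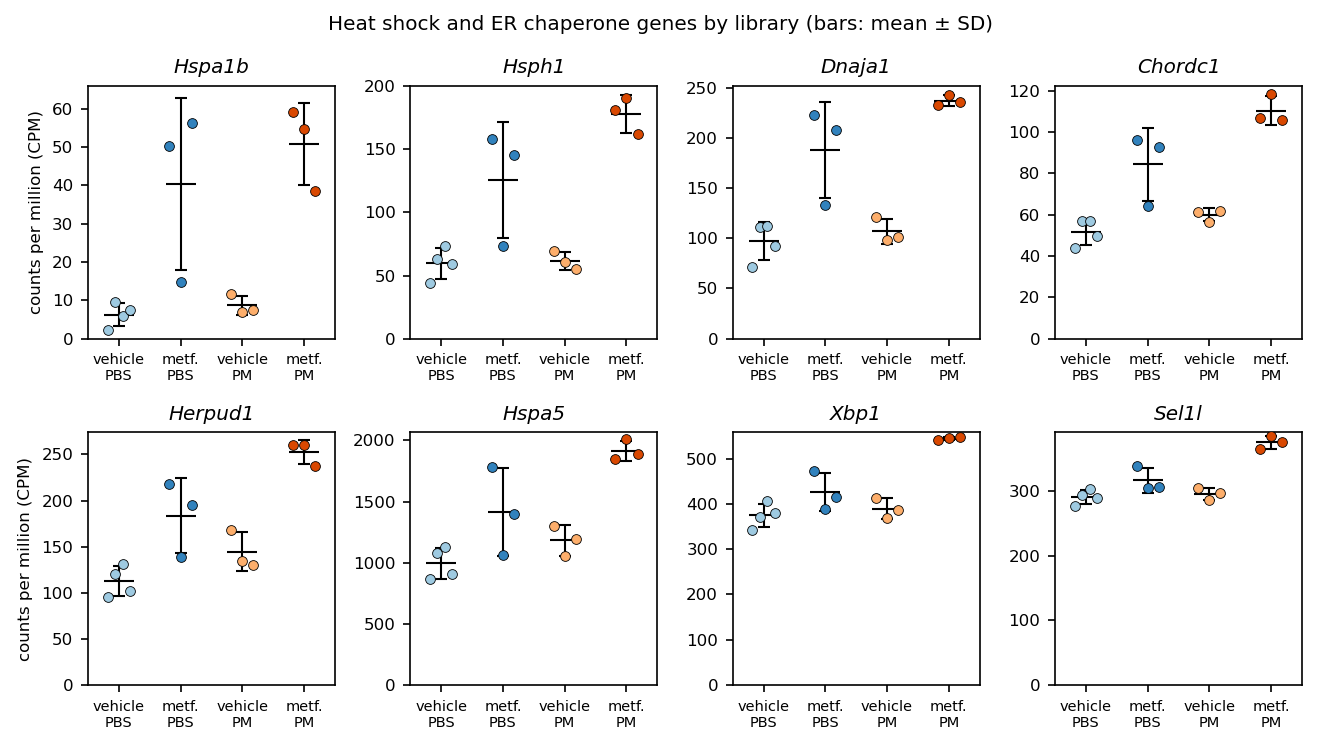
Counts per M (CPM, linear axis from 0) of 8 chaperone and ER genes in each of the 13 libraries, with vehicle and metformin (metf.) groups after PBS and after PM, each point a library and each bar the group mean ± SD. All metformin PM points lie above all vehicle PM points in every panel, and library metformin PBS 3 is the lowest point of its group in every panel.

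Heat shock genes carry in their promoters an element of repeated GAA blocks to which HSF1 binds, and 1 pair of such blocks reads GAANNTTC on both strands. In the RefSeq promoter table (GRCm38.p6, 250 bases before to 50 after each start, the outermost start where a gene has several) 7.96% of 27025 promoters held this sequence. Among the 14 heat shock genes that rose 12 had a promoter in the table, and 7 of these held it, as did 9 of the 22 tested members with a promoter. The stretches below run from 150 bases before the start to 20 bases after it, 5′ to 3′ on the gene's strand, for members of the list with low adjusted p, with the matched letters in capitals. They show that this sequence can lie near the start, further upstream or nowhere in the window. Other arrangements of the GAA blocks were not searched.
Hspa1b (chr17:34959219-34959388, minus strand): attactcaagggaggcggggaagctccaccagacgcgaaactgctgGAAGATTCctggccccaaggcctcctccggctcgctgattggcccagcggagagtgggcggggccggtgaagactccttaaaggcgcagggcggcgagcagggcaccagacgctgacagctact
Dnaja1 (chr4:40722318-40722487, plus strand): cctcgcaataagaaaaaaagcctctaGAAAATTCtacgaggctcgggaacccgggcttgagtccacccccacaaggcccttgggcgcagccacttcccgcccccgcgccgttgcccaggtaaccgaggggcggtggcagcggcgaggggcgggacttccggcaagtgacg
Chordc1 (chr9:18292117-18292286, plus strand): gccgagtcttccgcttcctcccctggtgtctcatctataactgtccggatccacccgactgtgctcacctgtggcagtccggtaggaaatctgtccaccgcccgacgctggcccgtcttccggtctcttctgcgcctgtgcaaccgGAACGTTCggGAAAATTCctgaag
Hspa4l (chr3:40745463-40745632, plus strand): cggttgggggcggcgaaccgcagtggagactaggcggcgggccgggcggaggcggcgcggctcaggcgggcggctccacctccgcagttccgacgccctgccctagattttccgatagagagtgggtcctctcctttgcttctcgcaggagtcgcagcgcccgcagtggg
The first letter of the match was 104 bases before the start in Hspa1b and 124 bases before it in Dnaja1. Chordc1 had a match that began 4 bases before the start and another that began at base 7 of the transcript. Hsph1 had 1 match, at base 42. No match was found for Hspa4l, which says only that these letters do not occur in its window. The log2 rise of Hspa4l was 0.68 ± 0.08. Those of Hspa1b, Hsph1, Dnaja1 and Chordc1 were 2.55 ± 0.37, 1.52 ± 0.19, 1.15 ± 0.15 and 0.88 ± 0.12. Whether rises differ between genes with and without a match was not tested.

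Members of the ER list rose as well. Of 27 ER chaperone and unfolded protein response genes 12 rose and none fell (44.4% and 0%, against 4.08% and 2.81% of all genes). Their median log2 fold change was 0.179, and the count of rises stayed between 9 and 13 without any one library. Xbp1, the transcription factor at the centre of that response, rose from 414, 370 and 386 CPM to 541, 545 and 547 CPM (log2 0.48 ± 0.07, adjusted p = 0.000229). Hspa5, the main Hsp70 of the ER lumen, had 1300, 1050 and 1190 CPM with vehicle and 1850, 2010 and 1890 CPM with metformin (log2 0.70 ± 0.13, adjusted p = 0.00217). Every metformin library exceeded every vehicle library for both genes.

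Herpud1, a membrane protein of the complex that exports misfolded proteins from the ER for degradation, went from 169, 135 and 130 CPM to 260, 260 and 238 CPM (log2 0.80 ± 0.13, adjusted p = 0.000718). Its ubiquitin ligase partner Syvn1 rose by 0.79 ± 0.14 (adjusted p = 0.00151) and the adaptor Sel1l by 0.34 ± 0.06 (adjusted p = 0.000713). The secreted ER stress proteins Creld2 and Manf rose by 0.66 ± 0.11 and 0.64 ± 0.14 (adjusted p = 0.00117 and 0.00596). The CCACG part of the ER stress element was in the promoters of 8 of the 9 ER genes that rose and had a promoter in the table, of 19 of 22 tested members and of 32.7% of all promoters. Herpud1 is shown because it held 2 such matches, beginning 122 and 46 bases before the start.
Herpud1 (chr8:94386279-94386448, plus strand): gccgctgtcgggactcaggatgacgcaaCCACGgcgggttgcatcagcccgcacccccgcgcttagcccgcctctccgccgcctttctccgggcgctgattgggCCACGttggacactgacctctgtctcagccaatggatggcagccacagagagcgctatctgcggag

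Among genes of the branch of the stress response that runs through the factor ATF4, falls outnumbered rises. Of 33 genes of this integrated stress response 6 fell and 2 rose (18.2% and 6.06%, against 2.81% and 4.08% of all genes). Their median log2 fold change was −0.0941. Gdf15, a secreted stress hormone, fell from 131, 101 and 99.8 CPM to 49.9, 56.3 and 67.9 CPM (log2 −0.94 ± 0.16, adjusted p = 0.00121). The amino acid transporter genes Slc7a5 and Slc7a1 fell by 0.68 ± 0.12 and 0.63 ± 0.11 on the log2 scale (adjusted p = 0.00201 and 0.00138). Ddit3, which encodes CHOP, was among the 2 that rose, from 7.35, 7 and 8.78 CPM to 14.3, 13.4 and 12.8 CPM (adjusted p = 0.0051). Trib3 (2.95 to 5.14 CPM over the 6 libraries, adjusted p = 0.751) and Atf3 (192 to 237 CPM, adjusted p = 0.365) were not called. The number of rises in this list was 1 without any one of vehicle PM 1, 2 and 3 and metformin PM 1 and 3. The sequence TGATGCAA, to which ATF4 binds together with C/EBP factors, was in 5 of 27 promoters of tested members and in 0.929% of all promoters.

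Some chaperone genes were also higher with metformin in the mice given PBS. There 135 genes (1.13%) were higher and 230 (1.93%) were lower with metformin than with vehicle, over libraries of which none is shared with the comparison after PM. The 365 calls after PBS became 121 without metformin PBS 4, 151 without vehicle PBS 1 and 215 without vehicle PBS 2. Of the heat shock list 9 members rose after PBS, and of the ER list 3. The log2 rise of Hspa1b was 2.70 after PBS against 2.55 after PM, that of Dnaja1 0.96 against 1.15 and that of Herpud1 0.71 against 0.80. The difference between the effects was not called for any member of either list. For Hsph1 it was 0.45 ± 0.27 (adjusted p = 0.561). Library metformin PBS 3 had 14.7 CPM of Hspa1b while metformin PBS 1 and 4 had 50.3 and 56.2 CPM, so the metformin libraries after PBS were less alike than those after PM. The heat shock count after PBS was 5 without metformin PBS 4. The ER count after PBS was 1 without vehicle PBS 1, metformin PBS 1 or metformin PBS 4 and 6 without metformin PBS 3.

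**Figure D2:**
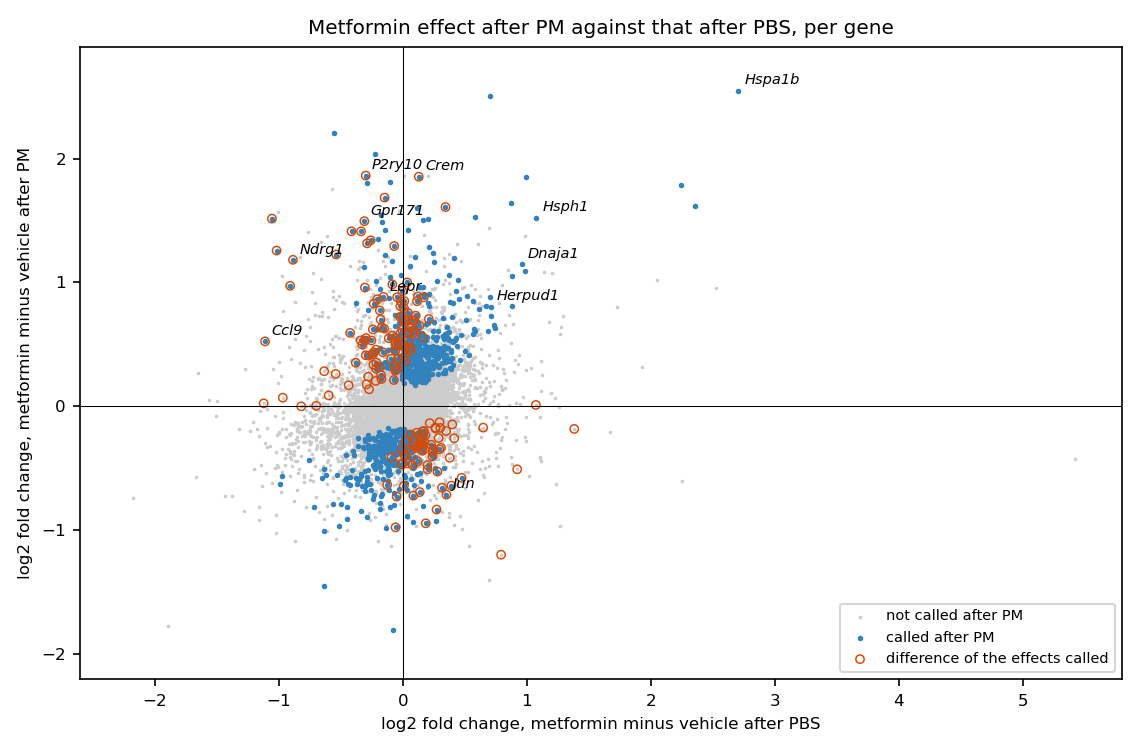
Log2 fold change of metformin against vehicle after PM (vertical axis) against that after PBS (horizontal axis), 1 point per gene tested, with genes called after PM in blue and genes whose 2 effects differ by the edgeR test ringed in orange. Chaperone genes such as Hspa1b, Hsph1 and Dnaja1 lie far out on both axes, whereas Crem, P2ry10 and Gpr171 are high on the vertical axis and near 0 on the other.

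The difference between the effects of metformin after PM and after PBS was itself tested. It was called for 171 genes (1.44%), of which 106 had the more positive effect after PM and 65 the more negative one. The 171 became 113 without metformin PBS 4 and 262 without vehicle PBS 4. Among 20 tested cAMP and CREB target genes 9 rose and 3 fell after PM (45% and 15%, against 4.08% and 2.81% of all genes). The difference of the effects was called for 6 of the 20, among them Sgk1, which fell. The median log2 fold change of the list was 0.243. Crem, the cAMP-inducible repressor gene, had 16.8, 9.95 and 13.2 CPM in vehicle PM and 62.6, 41.1 and 40.9 CPM in metformin PM, a 3.61-fold rise (log2 1.85 ± 0.21, adjusted p = 3.2e-05). After PBS it stood at 22.5, 11.9, 19.3 and 20 CPM with vehicle and 24.9, 15.5 and 20 CPM with metformin. The effect after PM exceeded that after PBS by 1.72 ± 0.31 (adjusted p = 0.00607). Nr4a3, an orphan nuclear receptor, rose from 31.8, 21 and 34.1 CPM to 86.5, 65.9 and 79.2 CPM (log2 1.41 ± 0.23, adjusted p = 0.000908), and its effects differed by 1.75 ± 0.33 (adjusted p = 0.00892). Its relative Nr4a1 had overlapping groups (417 to 565 CPM and 445 to 553 CPM).

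The cAMP-degrading phosphodiesterase genes Pde4b and Pde3b rose by 0.71 ± 0.12 and 0.47 ± 0.06 (adjusted p = 0.00115 and 7.93e-05), and the difference from PBS was called for Pde3b (0.41 ± 0.08, adjusted p = 0.0139, lost without metformin PM 1) but not for Pde4b (0.66 ± 0.17, adjusted p = 0.0579). The clock gene Per1 had 224, 174 and 204 CPM with vehicle and 335, 285 and 261 CPM with metformin (log2 0.55 ± 0.10, adjusted p = 0.00201). The kinase gene Sik1 rose by 0.31 ± 0.08 (adjusted p = 0.0215), a call lost without vehicle PM 1, vehicle PM 2, metformin PM 1 or metformin PM 3. The short form of the cAMP response element, TGACG, was in the promoters of 4 of the 5 list members that rose and had a promoter in the table, of 2 of the 3 that fell, of 9 of 16 tested members and of 20.9% of all promoters. The full element TGACGTCA was in 0 of those 5, in 1 of the 3, in 2 of the 16 and in 1.85% of all promoters.

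Genes outside the lists were named by the size of their change or of the difference between the settings. Lepr, the leptin receptor, had 184, 152 and 175 CPM in vehicle PM and 308, 298 and 339 CPM in metformin PM (log2 0.88 ± 0.07, adjusted p = 3.12e-06). The corresponding effect after PBS was −0.16, and the difference of 1.04 ± 0.10 had the lowest adjusted p of all genes (4.21e-05). Gpr171, a G protein-coupled receptor gene that lies within Med12l, rose from 8.62, 8.86 and 10.6 CPM to 25.8, 27.8 and 25.2 CPM (2.82-fold, adjusted p = 3.72e-06). P2ry10, a receptor for lysophospholipids, rose from 2.54, 2.8 and 1.79 CPM to 10.7, 6.37 and 9.18 CPM (3.64-fold, adjusted p = 6.2e-05). Dusp16, a phosphatase of the kinases JNK and p38, rose from 24.2, 17.3 and 24.1 CPM to 79.7, 65.1 and 54.3 CPM (3.05-fold, adjusted p = 8.62e-06). Ece1, the endothelin-converting enzyme, rose 2.53-fold (adjusted p = 2.16e-05). For each of these the metformin PM libraries were also above every PBS library.

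Glucocorticoid-induced genes gave a mixed picture, with 5 of 19 higher and 2 lower (26.3% and 10.5%, against 4.08% and 2.81% of all genes). Their median log2 fold change was 0.155, and 8 were higher without a filter on low counts. Fkbp5, the FK506-binding protein that restrains the glucocorticoid receptor, rose from 251, 228 and 176 CPM to 315, 343 and 351 CPM (log2 0.62 ± 0.10, adjusted p = 0.000761). The kinase gene Sgk1 fell from 1980, 1960 and 1990 CPM to 1540, 1550 and 1570 CPM (log2 −0.35 ± 0.06, adjusted p = 0.0019). Per1 and Dusp1 belong to this list and to the cAMP list and moved in opposite directions.

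Immediate early genes are AP-1, Egr and Klf factors and others that cells switch on soon after a signal. Of 28 members 8 fell and 2 rose (28.6% and 7.14%, against 2.81% and 4.08% of all genes). The rises were those of the AP-1 genes Fosl1 and Fosl2, and 18 members were not called. The median log2 fold change of the 28 was −0.179. Without a filter on low counts the falls numbered 13. Fos stood at 3190, 3120 and 3240 CPM in vehicle PM and at 1990, 2470 and 2170 CPM in metformin PM (log2 −0.53 ± 0.11, adjusted p = 0.00422). Dusp1, the phosphatase of p38 and JNK, fell from 1350, 1230 and 1440 CPM to 794, 923 and 821 CPM (log2 −0.66 ± 0.12, adjusted p = 0.00164). Jun fell from 895, 541 and 801 CPM to 447, 466 and 453 CPM (log2 −0.71 ± 0.15, adjusted p = 0.00569). The groups did not overlap for these genes, although vehicle PM 2 came near the metformin libraries for Jun. Klf2 and Klf4, Krüppel-like factors that restrain inflammatory genes, fell by 0.69 ± 0.14 and 0.34 ± 0.07 (adjusted p = 0.00506 and 0.00473). Egr1 had 1380, 799 and 1260 CPM with vehicle and 684, 723 and 696 CPM with metformin, and was not called (adjusted p = 0.0632). The number of rises in this list was 0 without vehicle PM 2, metformin PM 1 or metformin PM 3 and 1 without vehicle PM 1 or metformin PM 4 or with libraries thinned to equal totals.

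Values of these genes in the PBS groups are set beside the falls. In the comparison of PM with PBS among vehicle mice, which uses the same vehicle PM libraries, 309 genes (2.60%) were higher and 269 (2.26%) lower, and 11 of the 28 immediate early genes were higher and 1 was lower. Fos had been 0.57 higher with PM than with PBS under vehicle, Dusp1 0.61 higher and Egr1 1.43 higher on the log2 scale (adjusted p = 0.00114, 0.00184 and 0.000245). Jun, Btg2, Klf2 and Klf4, which fell with metformin, were not called with PM under vehicle (log2 0.457, 0.241, −0.114 and 0.024). Klf2 and Klf4 had means of 93.4 and 306 CPM in metformin PM, below those of 164 and 380 CPM in vehicle PBS. In metformin PM the mice had levels of Dusp1 (794 to 923 CPM) inside the range of the vehicle PBS libraries (645 to 1060 CPM). The effect of metformin on Fos and Jun after PM was lower than that after PBS by 0.81 ± 0.14 and 1.06 ± 0.20 (adjusted p = 0.00607 and 0.00892). For Dusp1 that difference was not called (−0.63 ± 0.16, adjusted p = 0.0599).

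**Figure D3:**
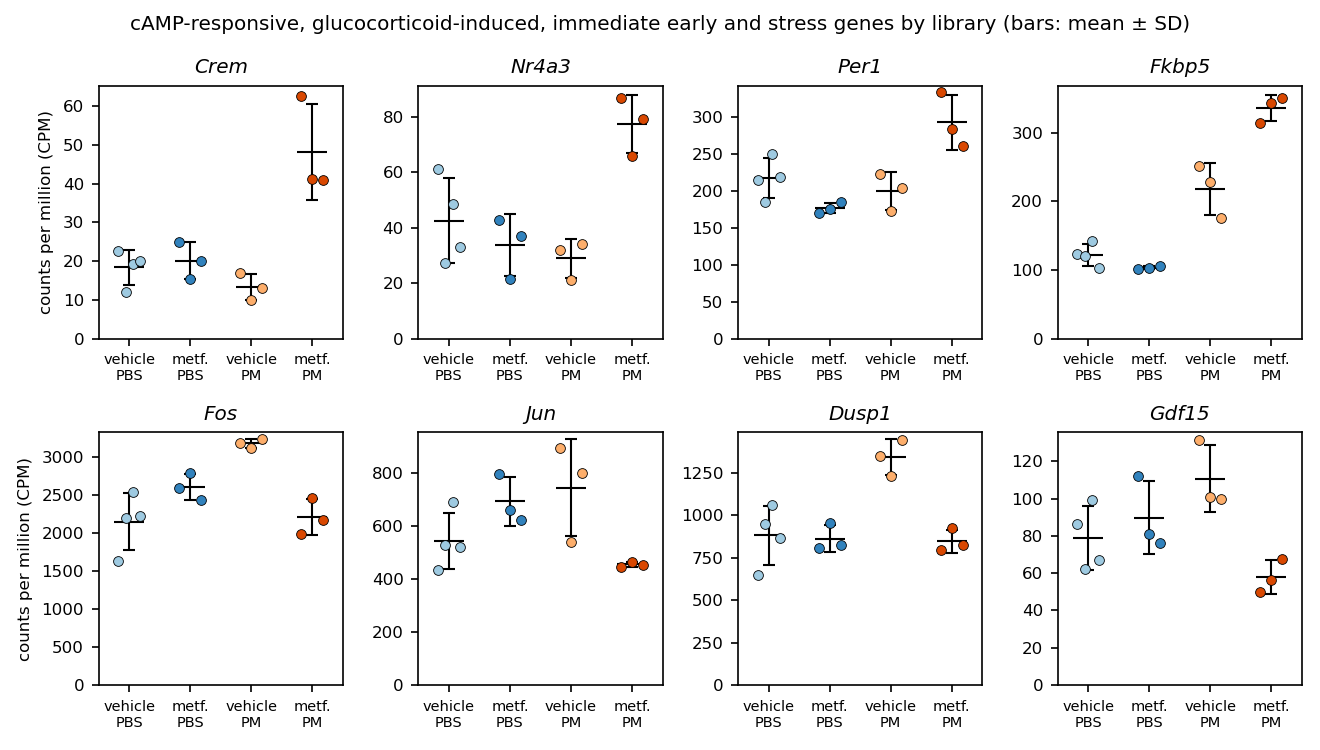
Counts per M (linear axis from 0) of 8 cAMP-responsive, glucocorticoid-induced, immediate early and stress genes in each library, with vehicle and metformin (metf.) groups after PBS and after PM, each point a library and each bar the group mean ± SD. Crem, Nr4a3, Per1 and Fkbp5 are highest in metformin PM, and Fos and Dusp1 are highest in vehicle PM with the other groups overlapping one another.

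In vehicle mice 12 of 23 tested cytokine and chemokine genes were higher with PM than with PBS, but with metformin after PM 2 of the 23 (8.7%, against 4.08% of all genes) were higher than with vehicle, 21 were not called and 0 were lower. The rises numbered 1 without vehicle PM 1, vehicle PM 2, metformin PM 1 or metformin PM 3 and 3 without vehicle PBS 1. They numbered 4 with only the groups compared and 8 without a filter on low counts, where 1 cytokine gene was lower. By unadjusted p under 0.05 edgeR gave 5 higher and 0 lower, limma-voom called 2 higher and 0 lower, and DESeq2 called 1 higher and 0 lower. Il6 had 60.2, 44 and 64.7 CPM in vehicle PM and 45.8, 51.8 and 47.5 CPM in metformin PM (log2 −0.22 ± 0.24, adjusted p = 0.671). Under vehicle it had been 1.86 higher with PM than with PBS (adjusted p = 0.000142). Tnf had 948, 577 and 846 CPM with vehicle and 563, 627 and 699 CPM with metformin (log2 −0.33 ± 0.30, adjusted p = 0.598). The groups overlapped for both cytokines, and the standard errors show that a change of the sizes seen here could not be told from 0 with these libraries.

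Il1b (252 to 351 CPM with vehicle and 345 to 412 CPM with metformin, adjusted p = 0.419), Cxcl1 (adjusted p = 0.914) and Cxcl2 (adjusted p = 0.915) were not called either. Among 32 subunits and feedback targets of the factor NF-kB 3 rose and 2 fell (9.38% and 6.25%, against 4.08% and 2.81% of all genes). Their median log2 fold change was 0.0147, and 20 of them had been higher with PM under vehicle. The inhibitor genes Nfkbia and Tnfaip3 changed by −0.05 ± 0.22 and −0.07 ± 0.15 on the log2 scale, neither of them called. With only the groups compared 5 genes of this list were higher, and without a filter on low counts 4 were lower. The 3 rises of this list became 0 without metformin PM 1 and 1 without vehicle PM 1, vehicle PM 2, metformin PBS 3 or metformin PBS 4. The 2 falls became 1 without vehicle PM 1, vehicle PM 3 or metformin PM 1. Of 22 interferon-stimulated genes edgeR called 0, with 2 at an unadjusted p under 0.05 and 0 by limma-voom or DESeq2.

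The genes of this kind that were called went in both directions. Icam1, the adhesion molecule that binds leukocyte integrins, fell from 158, 148 and 165 CPM to 117, 119 and 118 CPM (log2 −0.41 ± 0.06, adjusted p = 0.000106). The vehicle PBS libraries had 109 to 114 CPM of it. Ccl2, the chemokine that draws monocytes, rose from 6.07, 4.51 and 6.83 CPM to 13.9, 13.6 and 16 CPM (2.49-fold, adjusted p = 9.43e-05). Cd80, a costimulatory ligand for T cells, rose 1.82-fold (adjusted p = 0.000783). The chemokine gene Ccl9 rose by 0.52 ± 0.14 after PM (adjusted p = 0.0238), a call lost without vehicle PM 1, vehicle PM 2, metformin PM 1 or metformin PM 3, or with DESeq2. It was 1.11 lower on the log2 scale with metformin after PBS (adjusted p = 0.00203), and the effects differed by 1.64 ± 0.21 (adjusted p = 0.000653). The endotoxin receptor gene Tlr4 rose by 0.42 ± 0.09 (adjusted p = 0.00515).

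**Figure D4:**
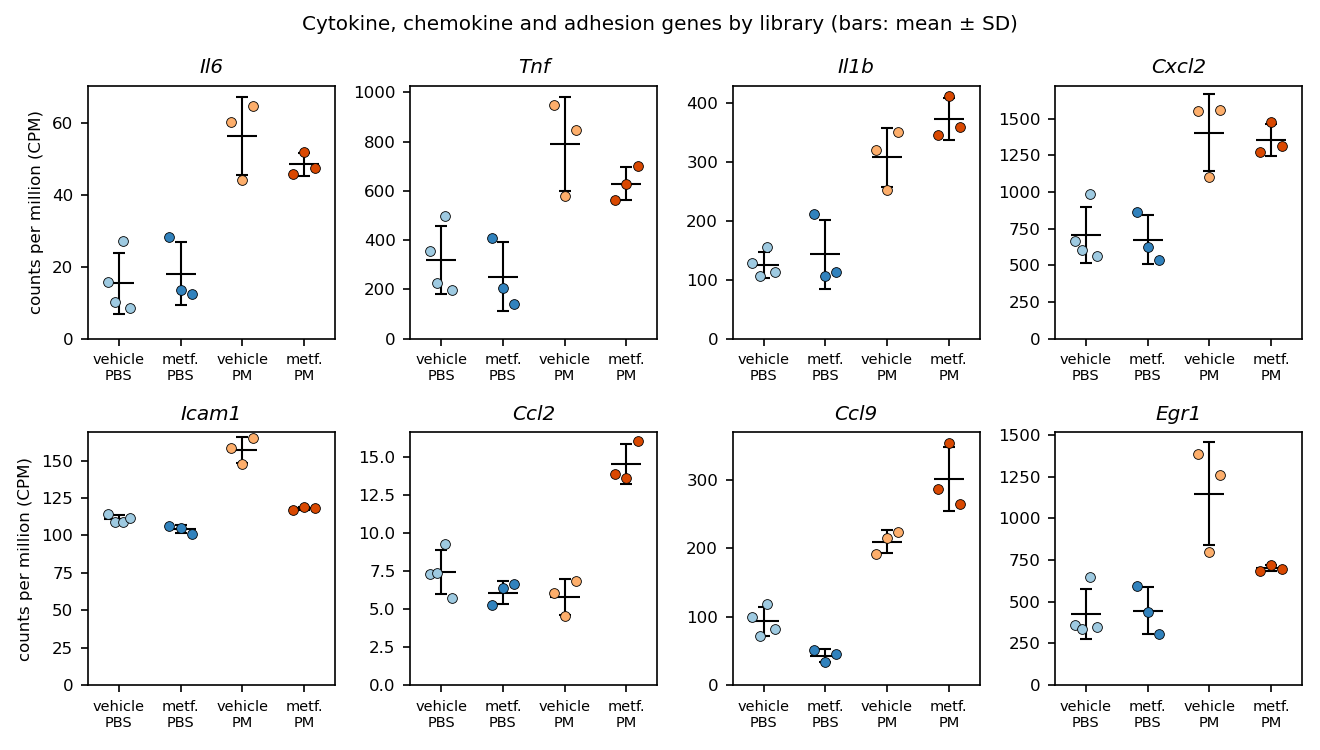
Counts per M (linear axis from 0) of 8 cytokine, chemokine, adhesion and early response genes in each library, with vehicle and metformin (metf.) groups after PBS and after PM, each point a library and each bar the group mean ± SD. For Il6, Tnf, Il1b and Cxcl2 both PM groups lie above the PBS groups and overlap each other, while Icam1 is lower and Ccl2 higher in metformin PM than in vehicle PM.

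Genes of coagulation, fibrinolysis and complement showed 4 rises and no fall among 17 tested (23.5% and 0%, against 4.08% and 2.81% of all genes). Their median log2 fold change was 0.0051. Plaur, the receptor for urokinase, rose from 628, 557 and 583 CPM to 1100, 939 and 885 CPM (log2 0.72 ± 0.08, adjusted p = 3.2e-05). Thbd, the thrombomodulin gene whose product turns thrombin towards activating protein C, rose from 127, 163 and 164 CPM to 225, 208 and 207 CPM (adjusted p = 0.00622). C5ar1, the receptor for complement C5a, rose by 0.36 ± 0.06 (adjusted p = 0.00151). Thbs1, thrombospondin, rose from 1.84, 0.933 and 5.2 CPM to 11.8, 6.75 and 14 CPM (adjusted p = 0.00515), and this call was lost with DESeq2. The factor X gene F10 had 186 to 226 CPM with vehicle and 196 to 221 CPM with metformin (adjusted p = 0.884). The urokinase gene Plau was not called (adjusted p = 0.539). The tissue factor gene F3 had 0 to 1 counts per library in vehicle PM and 1 to 5 in metformin PM, too few to be tested.

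Of 18 genes of fatty acid and triglyceride synthesis 4 rose and 2 fell (22.2% and 11.1%, against 4.08% and 2.81% of all genes). The falls numbered 4 without a filter on low counts. In the main fit 12 genes were not called, and the median log2 fold change of the list was −0.132. Dgat2, which makes triglyceride from diglyceride, rose from 117, 95.2 and 108 CPM to 237, 181 and 191 CPM (log2 0.93 ± 0.10, adjusted p = 2.61e-05). Lpin1, the phosphatidate phosphatase before it, rose by 0.69 ± 0.09 (adjusted p = 5.06e-05), and the fatty acid elongase Elovl6 rose 2.36-fold (adjusted p = 0.000209). The desaturase gene Scd2 and the regulator Srebf1 fell by 0.68 ± 0.11 and 0.39 ± 0.06 (adjusted p = 0.000761 and 0.000298). For Dgat2 the effect after PBS was 0.00, and the effects differed by 0.93 ± 0.14 (adjusted p = 0.00234).

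Of 25 cholesterol synthesis genes 3 fell and none rose after PM (12% and 0%, against 2.81% and 4.08% of all genes). Their median log2 fold change was −0.16, whereas 17 of the 25 had been higher with PM than with PBS under vehicle. Sqle, the squalene epoxidase, fell by 0.64 ± 0.15 (adjusted p = 0.00956). The number of falls in this list was 0 without vehicle PM 2 or metformin PM 1, 1 without vehicle PM 3, metformin PM 4, vehicle PBS 2 or metformin PBS 4 and 7 without metformin PM 3 or without a filter on low counts. The transcription factor genes Tfeb, a regulator of lysosome genes, and Ppargc1b, a coactivator of mitochondrial genes, fell by 0.63 ± 0.07 and 0.80 ± 0.17 (adjusted p = 3.2e-05 and 0.00611). Among 41 lysosome and autophagy genes 1 fell, which was Tfeb itself, and 1 rose (2.44% each, against 2.81% and 4.08% of all genes). That rise was lost without any one of vehicle PM 1, 2 and 3, metformin PM 1 and 4 and metformin PBS 4 and without a filter on low counts, and the falls numbered 2 without vehicle PM 1 or vehicle PBS 4, without that filter and with only the groups compared. Bhlhe41, a repressor of the clock that also sustains alveolar macrophages, fell from 170, 214 and 155 CPM to 84.9, 82 and 108 CPM (log2 −0.98 ± 0.11, adjusted p = 3.2e-05).

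Metal genes changed in 4 of 19 cases, 2 in each direction (10.5% each, against 4.08% higher and 2.81% lower over all genes). The rises numbered 4 without a filter on low counts or with only the groups compared. Slc30a1, the zinc exporter, rose from 10.3, 11.5 and 8.13 CPM to 17.1, 18 and 23.8 CPM (adjusted p = 0.00145), and the metallothionein Mt2 rose by 0.50 ± 0.11 (adjusted p = 0.0102, lost without vehicle PM 3). The transferrin receptor gene Tfrc fell by 0.58 ± 0.12 (adjusted p = 0.00649, lost without vehicle PM 2). Ndrg1, a target of hypoxia-inducible factor, rose 2.27-fold after PM (adjusted p = 0.00212) and was 0.89 lower on the log2 scale after PBS (adjusted p = 0.031). Among 31 NRF2 targets, the genes of the response to oxidants, none rose and 1 fell (0% and 3.23%, against 4.08% and 2.81% of all genes). At an unadjusted p under 0.05 there were 0 and 9 of the 31, against 1281 and 1136 of all 11906 genes. With limma-voom and DESeq2 the same 0 rises and 1 fall were called. The falls of that list numbered 0 without vehicle PM 2, 2 without vehicle PM 1 or metformin PM 4 and 4 without vehicle PM 3 or without a filter on low counts. Hmox1 and Nqo1 were not called (adjusted p = 0.301 and 0.22), and vehicle PM 2 had 591 CPM of Hmox1 where the other vehicle PM libraries had 300 and 208 CPM.

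The respiratory chain, on which metformin is known to act, showed no call at the level of transcripts. None of 37 nuclear-encoded complex I genes, 12 mitochondrially encoded genes and 39 genes of complexes II to V was called by edgeR, limma-voom or DESeq2, and their median log2 fold changes were −0.0263, −0.0158 and 0.0338. At an unadjusted p under 0.05 these lists had 1, 1 and 0 genes. None of 73 mitochondrial and 76 cytosolic ribosomal protein genes and 36 proteasome subunits was called by these tools either, with 5, 0 and 2 genes at an unadjusted p under 0.05. Across the other settings 1 mitochondrially encoded gene (lower) and 1 mitochondrial ribosomal protein gene (higher) were the most called in those lists, and the other 4 of these lists had no call under any of them. Among 24 genes of the AMPK and mTOR pathways 2 fell (8.33%, against 2.81% of all genes). None of these falls was left without vehicle PM 2, vehicle PM 3, metformin PM 1 or metformin PM 4. Only 1 was left without vehicle PM 1, metformin PM 3, vehicle PBS 2 or metformin PBS 4, or with library totals or a filter of 5 CPM. Prkaa1, which encodes a catalytic subunit of AMPK, had 96.4 to 106 CPM with vehicle and 89.8 to 94.8 CPM with metformin (adjusted p = 0.211). Prkaa2, the other catalytic subunit gene, had at most 2 counts per library in both PM groups. Store-operated calcium entry is the route by which calcium crosses the plasma membrane when ER stores are empty. Of 27 genes of calcium entry and handling 2 rose and 1 fell (7.41% and 3.7%, against 4.08% and 2.81% of all genes). The pore gene Orai1 of that route rose by 0.34 ± 0.09 and Orai2 fell by 0.36 ± 0.09 (adjusted p = 0.0242 and 0.0246). The call of Orai1 was lost without any one of the 6 PM libraries, and that of Orai2 without vehicle PM 2, vehicle PM 3, metformin PM 1 or metformin PM 3, or with thinned libraries. The other rise was that of the ER calcium pump gene Atp2a2, and the rises of this list numbered 0 without vehicle PM 2, vehicle PM 3 or metformin PM 3 and 1 without the other PM libraries. Orai3 and the calcium sensor Stim1 were not called (adjusted p = 0.981 and 0.0847).

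**Figure D5:**
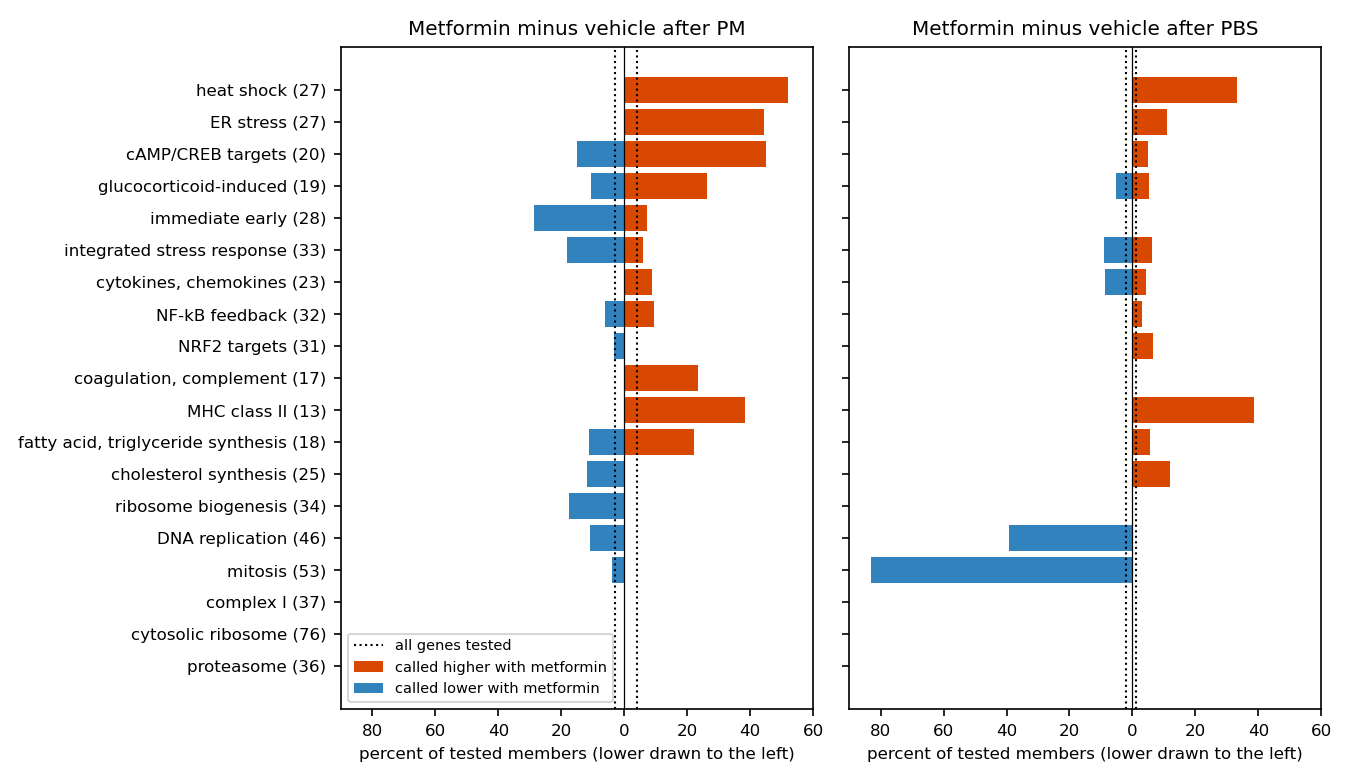
Percent of tested members called higher (orange, to the right) and called lower (blue, to the left) with metformin after PM (left panel) and after PBS (right panel) for 19 gene lists, with the number of members tested in brackets and dotted lines at the percent over all genes tested. Heat shock members stand out to the right in both panels, and the bars of mitosis and DNA replication members reach further to the left after PBS (44 of 53 and 18 of 46 members) than after PM (2 and 5 members).

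Medians of cell cycle and ribosome biogenesis genes were below 0. Ribosome biogenesis genes had a median log2 fold change of −0.218 with none of 34 members above 0. Of the 34, 6 fell (17.6%, against 2.81% of all genes), among them Dkc1 of the RNA-modifying complex (−0.42 ± 0.09, adjusted p = 0.00596). That count was 2 without vehicle PM 2 or metformin PM 1, 3 without metformin PM 4, 10 without metformin PM 3 and 13 without a filter on low counts. Of 53 mitosis genes 2 fell after PM (3.77%, against 2.81% of all genes), with a median of −0.235. After PBS 44 of them fell, with a median of −0.783. The falls after PM numbered 15 with only the groups compared and 14 without a filter on low counts. Of 46 DNA replication genes 5 fell after PM (10.9%, against 2.81% of all genes) and 18 after PBS, and the falls after PM numbered 9 with only the groups compared and 9 without a filter. Without metformin PBS 4 the falls after PBS numbered 25 for mitosis and 7 for DNA replication. The DNA replication falls after PBS numbered 10 without vehicle PBS 1 or metformin PBS 1 and 28 without vehicle PBS 4. The difference of the effects was called for 1 gene of each of these lists. The mitotic checkpoint kinase gene Bub1b fell by 0.39 ± 0.08 after PM (adjusted p = 0.00637) and by 0.46 after PBS (adjusted p = 0.00496). The DNA replication count lay between 1, without metformin PM 4, and 8, without vehicle PBS 1. It was 2 without vehicle PM 2 or vehicle PM 3 and 3 without metformin PM 1. The mitosis count after PM was 7 without vehicle PBS 1 and 5 without vehicle PBS 4. That count was 1 without any one of vehicle PBS 2, metformin PBS 4, vehicle PM 2, vehicle PM 3 and the metformin PM libraries, and with thinned libraries.

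Of 13 MHC class II and costimulation genes 5 rose (38.5%, against 4.08% of all genes) and 8 were not called. H2-Aa had 221, 196 and 285 CPM with vehicle and 425, 396 and 340 CPM with metformin (adjusted p = 0.0203), and Cd74, the invariant chain, rose by 0.63 ± 0.18 (adjusted p = 0.0362). Of these 5 rises 1 was left without any one of vehicle PM 1, vehicle PM 2, metformin PM 1 and metformin PM 3, or with DESeq2. After PBS 5 of the 13 were higher with metformin, among them H2-Aa and Cd74 (log2 0.712 and 0.743, adjusted p = 0.0249 and 0.0167). The difference of the effects was called for neither H2-Aa nor Cd74, and for 2 of the 13 genes. Of 18 endothelial and stromal markers 5 rose (27.8%, against 4.08% of all genes) and 13 were not called, and 17 had a log2 fold change above 0. The collagen gene Col1a1 had 0.424, 0.933 and 3.09 CPM in vehicle PM and 4.1, 5.6 and 5.45 CPM in metformin PM. The summed level of all 22 such markers was 387.8 to 478.3 CPM in vehicle PM and 431.2 to 508 CPM in metformin PM. Their count of rises was 1 without vehicle PM 1, vehicle PM 2 or metformin PM 3, or with DESeq2, 2 without metformin PM 4 and 3 without vehicle PBS 2, metformin PBS 3 or metformin PBS 4. It was also 3 with a filter of 5 CPM or with thinned libraries, and 10 without a filter. Of 12 epithelial markers 1 rose (8.33%, against 4.08% of all genes). It was the receptor gene Ager of alveolar type I cells (adjusted p = 0.0371), a call lost without vehicle PM 1, 2 or 3 or metformin PM 3 or 4, with thinned libraries and with limma-voom. Without a filter on low counts 4 epithelial markers were higher. The summed level of all 19 epithelial markers was 237.6 to 288.7 CPM against 271.3 to 322.3 CPM. Of the 53 rises past 2-fold, 35 had a mean under 10 CPM in metformin PM, Timp3 (1.55, 1.55 and 3.09 against 5.96, 6.75 and 7.16 CPM) among them. The part of transcripts from other cell types in these low rises was not tested, and in sorted bulk samples a change in the share of a cell type and a change in RNA per cell cannot be told apart.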

How the data were processed

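RNA-seq counts were used for 13 libraries. Per the submitters' processing notes, base calls were converted with bcl2fastq 2.19, and TopHat2, HTSeq, edgeR and the mm10 build were used; the annotation release and the strand setting are not given in the sources used here. Per the labels' protocols, 100 ng of RNA (integrity number above 7) gave polyadenylated libraries read over 75 bases from one end. The deposited values are whole-number counts per gene, not normalized, for 43430 genes. All of its sample columns matched the labels.

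The counts were analysed in R 4.3.3 with edgeR 4.0.16: low genes were removed with filterByExpr, libraries were scaled by the trimmed mean of M values, and a quasi-likelihood model was fitted to all 13 libraries with a mean for each group, which left 9 residual degrees of freedom. The standard error is the log2 fold change divided by the square root of F. P-values were adjusted by Benjamini-Hochberg over all 11906 genes tested, and a gene is called at an adjusted p under 0.05. CPM values use the scaled library sizes. The model was tested on simulated data. With 3 libraries against 3 an exact permutation test of a single gene cannot go below p = 0.10, so none was used. Each p-value sets a difference between groups against a spread estimated from all 13 libraries and moderated across genes. The samples are labelled as biological replicates.

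The comparison and the 45 gene lists were chosen with earlier results of these data known, so no list is independent evidence. Genes were named by these rules: the 15 largest rises and falls that were called, reached 5 CPM and overlapped in no library; in each list the 4 members of lowest adjusted p; a panel of inflammation, coagulation, AMPK, oxidant and calcium genes; and the 8 genes with the lowest adjusted p for the difference between the effects after PM and after PBS. Bag3, Hsp90aa1, Hspa8, Dnajb1, Hsf1, Stip1, Hspa5, Syvn1, Manf, Ddit3, Trib3, Nr4a1, Sik1, Jun, Klf2, Egr1, Atf3, Cd74, Scd2, Fosl1, Fosl2 and Car4 were added after their values were seen. Not every gene that these rules name is reported here. Where a gene overlaps another, reads of the 2 may not be separable: this holds for Hspa1a, Dnaja1, Syvn1, Manf, Ddit3, Gpr171, Ece1, Jun, Il1b, Icam1, Cd74, Srebf1, Slc30a1, Timp3, Mmp19, Orai1, Atp2a2, Plet1 and Dkc1. Alternatives were other scalings (upper quartile, relative log expression, totals), no filter, a stricter filter of at least 5 CPM in 3 libraries, only the groups compared, thinning to equal totals, limma-voom (limma 3.58.1), DESeq2 1.42.0, a replicate block and each library left out in turn.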

Additional observations from a re-analysis of the deposited data

Results flagged for a closer look

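The metformin effect after PM differed from that after PBS, by edgeR's test of the difference over all genes, for 32 of the genes given values here; the values are log2 differences, positive where the effect after PM was the higher one. Among cAMP and glucocorticoid genes they were 1.725 for Crem, 1.749 for Nr4a3, 0.412 for Pde3b, 0.849 for Per1, 0.863 for Fkbp5 and −0.501 for Sgk1. Among signalling and receptor genes they were 1.265 for Dusp16, 2.162 for P2ry10, 1.805 for Gpr171, 1.04 for Lepr, 1.6 for Ece1 and 0.733 for Plaur. Among early response and stress genes they were −0.805 for Fos, −1.063 for Jun, −0.444 for Klf4, −0.707 for the antiproliferative gene Btg2 and −1.128 for Gdf15. Among immune genes they were 1.603 for Ccl2, 1.636 for Ccl9, −0.32 for Icam1 and 1.071 for Cd80. For lipid, metal and lysosome genes they were 0.932 for Dgat2, 0.603 for Lpin1, 2.069 for Ndrg1, 1.264 for Slc30a1, 0.824 for Mt2, −1.05 for Tfrc and −0.507 for Tfeb. For Bhlhe41 the difference was −0.917, for the matrix genes Timp3 and Mmp19 1.832 and 0.657 and for the stromal marker Sparcl1 1.763. The call of the difference was lost in 9 of the 13 fits that leave out a library for Icam1, in 10 for Timp3, in 8 for Sparcl1 and in 1, without metformin PM 1, for Pde3b. For the other genes it was called in all 13.

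In the vehicle PBS group, the only one with 4 libraries, 1 library stood apart from the others by Dixon's test for 7 of these genes. The level was 3.96 CPM of Hspa1a in vehicle PBS 1, 204 CPM of Hsp90aa1 in vehicle PBS 4, 8.29 CPM of Ddit3, 649 CPM of Egr1 and 34.8 CPM of Slc7a1 in vehicle PBS 3, and 196 CPM of Scd2 and 107 CPM of Stim1 in vehicle PBS 1. Chance gives such a flag in about 1 of 20 genes, and whether these 7 are more than that was not tested.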

How the results depend on the processing

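The genes called after PM, 486 higher and 334 lower, numbered 241 to 535 and 170 to 428 when 1 library was left out. The calls of the difference between the effects, 171, then numbered 113 to 262, and those after PBS, 365, numbered 121 to 503. Without a filter on low counts there were 545 lower genes after PM, 507 differences and 813 calls after PBS, and with only the groups compared 200 calls after PBS. The labels do not say whether the numbers in the sample names pair the samples. Deviations of the same-numbered vehicle PM and metformin PM libraries correlated at 0.116 and 0.0487. Differently numbered libraries were not compared in this way, so these values cannot decide whether the samples are paired. With a replicate block, 321 genes were higher and 214 lower after PM, 194 differences were called and 245 genes were called after PBS. The block also brought the rises of the MHC class II list from 5 to 2 and ended the calls of Ccl9, Orai2 and Ager. Other lists moved as well. Rises went from 5 to 2 for endothelial and stromal markers, from 3 to 1 for NF-kB genes and from 1 to 0 for lysosome genes. For cytokines and for immediate early genes they went from 2 to 1. Falls went from 6 to 3 for ribosome biogenesis, from 5 to 2 for DNA replication and from 3 to 1 for cholesterol synthesis. For mitosis and for AMPK and mTOR genes they went from 2 to 1. Of the 820 genes called after PM, 307 were called in all 13 fits that leave out a library, 444 under all 10 other settings and 297 under all of them, and none changed sign; the cause of lost calls was not tested. Of 5824 values of named genes under alternatives, 262 lost the call and 84 gained one. Scaling moved the median log2 fold change of all genes by under 0.1. Groups of 3 libraries at this depth limit what can be seen: small changes, and genes at a few CPM, may be missed.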
